A study of Mus musculus with 8 samples.

Results

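The genes described here encode the ESCRT machinery and the vacuolar protein sorting (VPS) proteins of mouse endosomes. They were selected by name in the scanner tables: non-control probes whose gene name begins with Chmp, or is Vps followed by a digit, or is Tsg101, Hgs, Stam, Stam2 or Pdcd6ip. The rule found 98 probes of 41174, which stand for 45 genes of 27530. Of these, 93 probes carried such a name on total RNA array 1, and 5 probes of Chmp1a and Vps13b carried it on total RNA array 2 only. All 45 genes were bright enough to be tested, 18 of them through a single probe on the array. Vps24 is listed under its current symbol, Chmp3.

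ESCRT complexes act in sequence on the endosome membrane: ESCRT-0, ESCRT-I and ESCRT-II gather ubiquitin-tagged membrane proteins, and ESCRT-III polymers, taken apart by the VPS4 ATPase, cut the neck of the vesicle that buds into the endosome. The same ESCRT-III polymers close membranes in cell division, nuclear envelope repair and plasma membrane repair. HOPS and CORVET tether endosomes and lysosomes before fusion, and retromer carries receptors from endosomes back to the Golgi or the cell surface.

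The samples were cultured lymph node stromal cells (LNSCs) of BALB/c mice, collected 48 h after lipofection of 400 pmol of siRNA against Eif4g3, or of a control siRNA. The Eif4g3 protein is an eIF4G paralogue, which bridges the mRNA cap-binding protein and the ribosome when translation starts. Heavy polysome RNA, from the gradient fractions whose transcripts carry many ribosomes, was hybridised on 4 arrays, and total RNA of the lysate on 4 arrays. On each of the 8 arrays Cy5 carried Eif4g3 siRNA RNA and Cy3 control siRNA RNA of the same fraction, so values below are log2 ratios with Eif4g3 siRNA on top, unless another quantity is named.

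Dyes were not swapped, so a probe's dye bias and a change of its transcript cannot be told apart in either fraction. Each slide held arrays of 1 fraction only, so differences between fractions and differences between slides cannot be told apart. Equal RNA mass was labelled, so values are relative to the other transcripts of a sample, and in such bulk samples fewer cells of a type and less RNA per cell cannot be told apart. Cells for the gradient were pooled, and separate cultures for the arrays of 1 fraction are not stated. The p-values therefore measure only the spread between these arrays, which may be technical. Probes well above background made up 43.8% to 54.0% in Cy5 and 38.4% to 58.0% in Cy3, with the lowest Cy3 share on heavy polysome array 1. Across genes, the ratios of heavy polysome arrays 2 and 4 correlated at 0.883, against 0.159 to 0.459 for the other pairs of that fraction. With the total RNA arrays these 2 arrays correlated at 0.265 to 0.734, so the arrays did not group by fraction alone. Heavy polysome arrays 1 and 3 and total RNA array 4 had the lowest mean correlation with their own fraction (0.288, 0.318 and 0.326). Eif4g3 itself averaged -2.46 ± 0.50 in heavy polysome RNA and -2.07 ± 0.29 in total RNA (SD, n = 4 each). The cells had all 9 stromal markers among the tested genes. Of the 7 endothelial markers 1 was tested, of 8 macrophage markers 5, of 6 lymphocyte markers 2 and of 4 epithelial markers 2; Pecam1, Lyve1, Adgre1, Itgam, Tyrobp, Ptprc, Cd79a, Ms4a1 and Cdh1 were not well above background on any array.

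In heavy polysome RNA, 6 of the 45 genes passed the threshold of an adjusted p of 0.05 (limma, two-sided, adjusted over all 14448 tested genes), beside 8.93% of all tested genes. Chmp3 and Chmp4b were higher in Eif4g3 siRNA cells, and Vps11, Chmp7 and Vps45 were lower. Chmp4b passed by its brightest probe and did not pass with the mean of its tested probes. Vps33a passed as higher by its brightest probe, but its other probe passed as lower, so no direction is given for that gene. Shares of all genes called were 4.88% higher and 4.05% lower. In total RNA, 2 of the 45 genes passed, beside 4.37% of all tested genes, with Chmp3 higher and Vps11 lower. Over all genes, 1.67% were called higher and 2.7% lower in total RNA. Only Chmp3 and Vps11 of the members passed in both fractions.

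**Figure D1:**
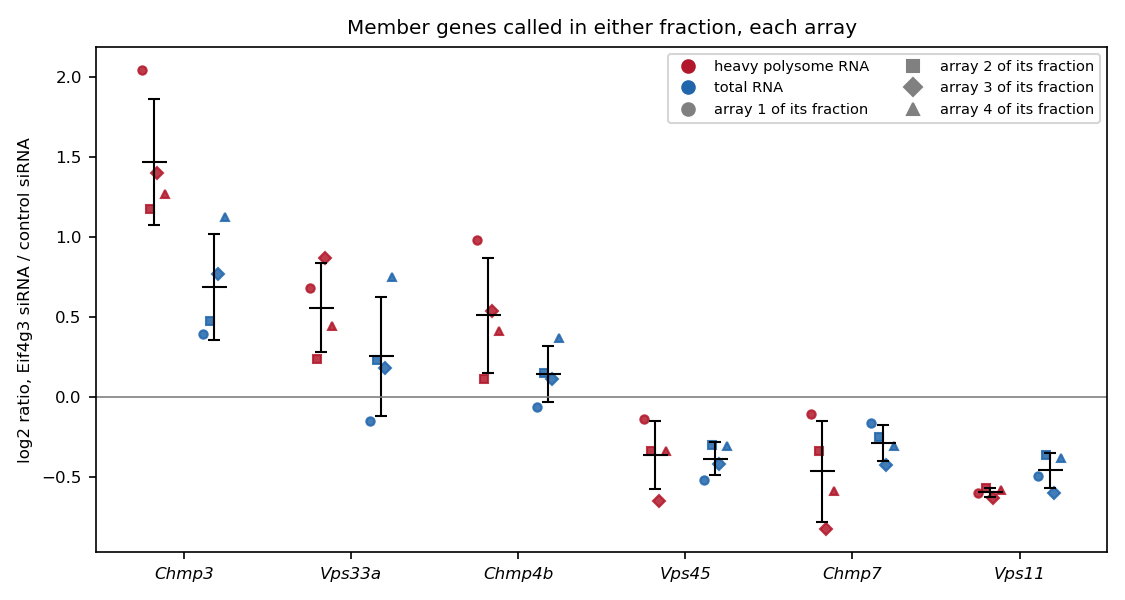
Log2 ratio of Eif4g3 siRNA over control siRNA (vertical axis) of the 6 member genes called in either fraction, with 1 point per array (the shape gives the array), heavy polysome RNA in red and total RNA in blue, and black bars for the mean and SD over 4 arrays. The 4 heavy polysome values of Chmp3 lie above all 4 of its total RNA values, and the heavy polysome values of Vps11 run from -0.64 to -0.57.

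Chmp3 carried the largest change among the members. It encodes an ESCRT-III subunit, known from yeast Vps24 to join the polymer late and to help recruit VPS4. Its log2 ratios were 2.04, 1.17, 1.40 and 1.27 on heavy polysome arrays 1 to 4, and 0.39, 0.48, 0.77 and 1.12 on total RNA arrays 1 to 4. All 8 values were above 0, and the lowest heavy polysome value exceeded the highest total RNA value. The gene was 2.77-fold higher in heavy polysome RNA (1.47 ± 0.39, n = 4, limma adjusted p = 0.00258) and 1.61-fold higher in total RNA (0.69 ± 0.33, n = 4, limma adjusted p = 0.0457). The probe, A_52_P246889, lies on chromosome 6 of mm8 from 71510178 to 71510237. A second probe, A_52_P493394 (71481965 to 71490461), spans an intron and read 0.71, 1.06, 0.45 and 1.20 in heavy polysome RNA and 0.56, 0.49, 0.60 and -0.25 in total RNA. Its heavy polysome mean of 0.86 ± 0.34 passed in a fit over all probes (limma adjusted p = 0.016), and its total RNA mean of 0.35 ± 0.40 did not (adjusted p = 0.25).

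The single-channel levels of the Chmp3 probe are given beside the ratio. After normalisation between arrays, the log2 intensity in Eif4g3 siRNA cells was 10.27, 9.81, 10.35 and 9.86 in heavy polysome RNA, against 9.42, 8.85, 9.60 and 9.14 in total RNA. In control siRNA cells it was 8.22, 8.64, 8.96 and 8.59 in heavy polysome RNA, against 9.03, 8.38, 8.83 and 8.02 in total RNA. The fractions did not overlap in Eif4g3 siRNA cells and overlapped in control siRNA cells. Heavy polysome minus total RNA was 0.82 in Eif4g3 siRNA cells (95% interval 0.32 to 1.32) and 0.04 in control siRNA cells (-0.52 to 0.59). The difference of the log2 ratios between fractions was 0.78 (95% interval 0.27 to 1.29). It did not pass adjustment over all genes (limma adjusted p = 0.847).

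The upstream sequence of Chmp3 is shown because this gene carries the largest change of the members in heavy polysome RNA. RefSeq, on GRCm38.p6, places 2 start sites on the plus strand of chromosome 6, and the 250 bases before each are printed. Capitals mark the letters CCGGAA, a core found in sites of ETS factors, and GGGCGG, a GC box, on either strand. The upper window holds neither, and in the lower window a GC box and a CCGGAA overlap.
Chmp3, chr6:71543602-71543851: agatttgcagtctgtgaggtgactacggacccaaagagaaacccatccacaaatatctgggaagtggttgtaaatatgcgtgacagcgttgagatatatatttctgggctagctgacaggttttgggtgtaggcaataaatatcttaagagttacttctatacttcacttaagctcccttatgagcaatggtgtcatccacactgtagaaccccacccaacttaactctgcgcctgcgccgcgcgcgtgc
Chmp3, chr6:71544103-71544352: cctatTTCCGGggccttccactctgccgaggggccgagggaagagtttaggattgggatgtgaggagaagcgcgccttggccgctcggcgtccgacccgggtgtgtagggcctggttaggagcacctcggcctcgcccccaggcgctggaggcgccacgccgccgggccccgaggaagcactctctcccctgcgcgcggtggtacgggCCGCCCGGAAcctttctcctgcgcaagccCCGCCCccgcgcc

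None of the 3 ESCRT-0 genes passed in either fraction. Hgs, which binds ubiquitin and the endosomal lipid PI3P, averaged -0.0042 ± 0.065 in heavy polysome RNA and -0.26 ± 0.42 in total RNA. Its partners Stam and Stam2 averaged 0.0043 ± 0.29 and 0.04 ± 0.14 in heavy polysome RNA, and 0.03 ± 0.34 and -0.04 ± 0.16 in total RNA. Stam2, the ESCRT-0 gene with the largest heavy polysome mean, read 0.18, 0.11, -0.14 and 0.03 there and -0.18, -0.19, 0.13 and 0.06 in total RNA, with both fractions on either side of 0.

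None of the 6 ESCRT-I genes passed. Tsg101, the ubiquitin-binding core subunit, averaged -0.14 ± 0.37 in heavy polysome RNA, where array 3 read -0.69 and the other arrays 0.03 to 0.07, and 0.05 ± 0.17 in total RNA. Vps28, the subunit that links ESCRT-I to ESCRT-II, averaged -0.04 ± 0.27 in heavy polysome RNA and 0.04 ± 0.19 in total RNA. Of the 4 interchangeable Vps37 subunits, Vps37b had the highest heavy polysome mean, with 0.53, 0.36, 0.01 and 0.29 there and -0.02, 0.31, 0.40 and -0.37 in total RNA. Its 4 heavy polysome values were above 0, and those of total RNA lay on both sides (0.30 ± 0.21, adjusted p = 0.205, and 0.08 ± 0.35, adjusted p = 0.795). Vps37c varied most, from -0.44 to 0.80 in heavy polysome RNA and from -1.24 to -0.17 in total RNA.

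The rule finds 2 ESCRT-II genes, Vps25 and Vps36, both with negative means that did not pass. Vps36, whose protein binds ubiquitin and PI3P, read -1.80, -0.08, -0.01 and -0.23 in heavy polysome RNA and -0.45, 0.29, -0.48 and 0.10 in total RNA. Heavy polysome array 1 set its mean of -0.53 ± 0.85. A second Vps36 probe, A_52_P421417, was steadier, with 0.08, -0.31, -0.46 and -0.37 in heavy polysome RNA and -0.41, -0.46, -0.56 and -0.54 in total RNA. That probe passed in total RNA in the fit over all probes (-0.49 ± 0.07, limma adjusted p = 0.031). Vps25, which binds ESCRT-III, averaged -0.24 ± 0.63 in heavy polysome RNA and -0.41 ± 0.11 in total RNA. The other ESCRT-II subunit, Snf8, has another name and is given with the pathway genes.

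ESCRT-III held 3 of the 6 genes called in heavy polysome RNA, 2 higher and 1 lower, among its 10 genes, beside 4.88% higher and 4.05% lower of all tested genes. Chmp4b, the main filament-forming subunit, read 0.98, 0.11, 0.54 and 0.41 in heavy polysome RNA and -0.06, 0.15, 0.11 and 0.37 in total RNA. It was above 0 on all heavy polysome arrays, and the fractions overlapped. By this probe the gene was 1.42-fold higher in heavy polysome RNA (0.51 ± 0.36, limma adjusted p = 0.045) and averaged 0.14 ± 0.18 in total RNA (adjusted p = 0.584). A second Chmp4b probe read 1.25, -0.83, -0.18 and -0.32 in heavy polysome RNA and -1.91, 0.35, -0.20 and 1.73 in total RNA, a spread over arrays too wide to show a change of the size of the first (-0.02 ± 0.89 and -0.01 ± 1.51). With the mean of its probes Chmp4b read 0.25 in heavy polysome RNA and was not called (limma adjusted p = 0.65). Its heavy polysome call was lost in 16 of 22 alternative settings.

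Chmp7, known for recruiting ESCRT-III to the nuclear envelope, read -0.10, -0.34, -0.83 and -0.59 in heavy polysome RNA and -0.16, -0.25, -0.43 and -0.31 in total RNA. All 8 values were below 0. It was 1.38-fold lower in heavy polysome RNA (-0.47 ± 0.31, limma adjusted p = 0.0394), and its total RNA mean of -0.29 ± 0.11 did not pass (adjusted p = 0.191).

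Chmp1a, which recruits VPS4 and the microtubule-severing ATPase spastin, had no called difference between the fractions. By its brightest probe it read 1.09, -0.23, 0.0042 and -0.31 in heavy polysome RNA and -0.83, -0.43, -0.82 and -0.45 in total RNA. Every heavy polysome value lay above every total RNA value. The difference was 0.77 (95% interval 0.12 to 1.42, limma adjusted p = 0.847), and neither fraction passed on its own (adjusted p = 0.723 in heavy polysome and 0.108 in total RNA). A second Chmp1a probe read 0.63, -0.30, 0.27 and -0.23 in heavy polysome RNA and -0.68, -0.29, -0.59 and -0.28 in total RNA, and there the fractions overlapped (0.09 ± 0.44 and -0.46 ± 0.20).

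The other ESCRT-III genes did not pass. Chmp6, which starts the polymer on ESCRT-II, averaged -0.25 ± 0.47 in heavy polysome RNA and -0.52 ± 0.32 in total RNA. Chmp2a and Chmp2b, late subunits that bind VPS4, averaged -0.24 ± 0.18 and 0.09 ± 0.73 in heavy polysome RNA, and -0.23 ± 0.25 and 0.25 ± 0.29 in total RNA. Chmp5 and Chmp1b had means between 0.05 and 0.21 in both fractions by their brightest probes. A second Chmp5 probe averaged -0.19 ± 0.35 in heavy polysome RNA and -0.47 ± 0.33 in total RNA, where all its values were below 0. It did not pass in the fit over all probes (limma adjusted p = 0.482 and 0.109). Chmp4c, which delays the final cut of cell division, was not well above background in Eif4g3 siRNA total RNA on any array, so its total RNA ratio is only a bound.

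VPS4 and ALIX genes showed no call. Pdcd6ip, which encodes the ESCRT adaptor ALIX, read -0.03, -0.29, -0.10 and -0.16 in heavy polysome RNA and -0.17, 0.01, -0.01 and -0.16 in total RNA. Its heavy polysome values were all below 0 and close together, and they overlapped those of total RNA (-0.14 ± 0.11 and -0.08 ± 0.10). The ATPase genes Vps4a and Vps4b averaged 0.14 ± 0.25 and -0.10 ± 0.49 in heavy polysome RNA, and -0.06 ± 0.05 and -0.31 ± 0.35 in total RNA.

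**Figure D2:**
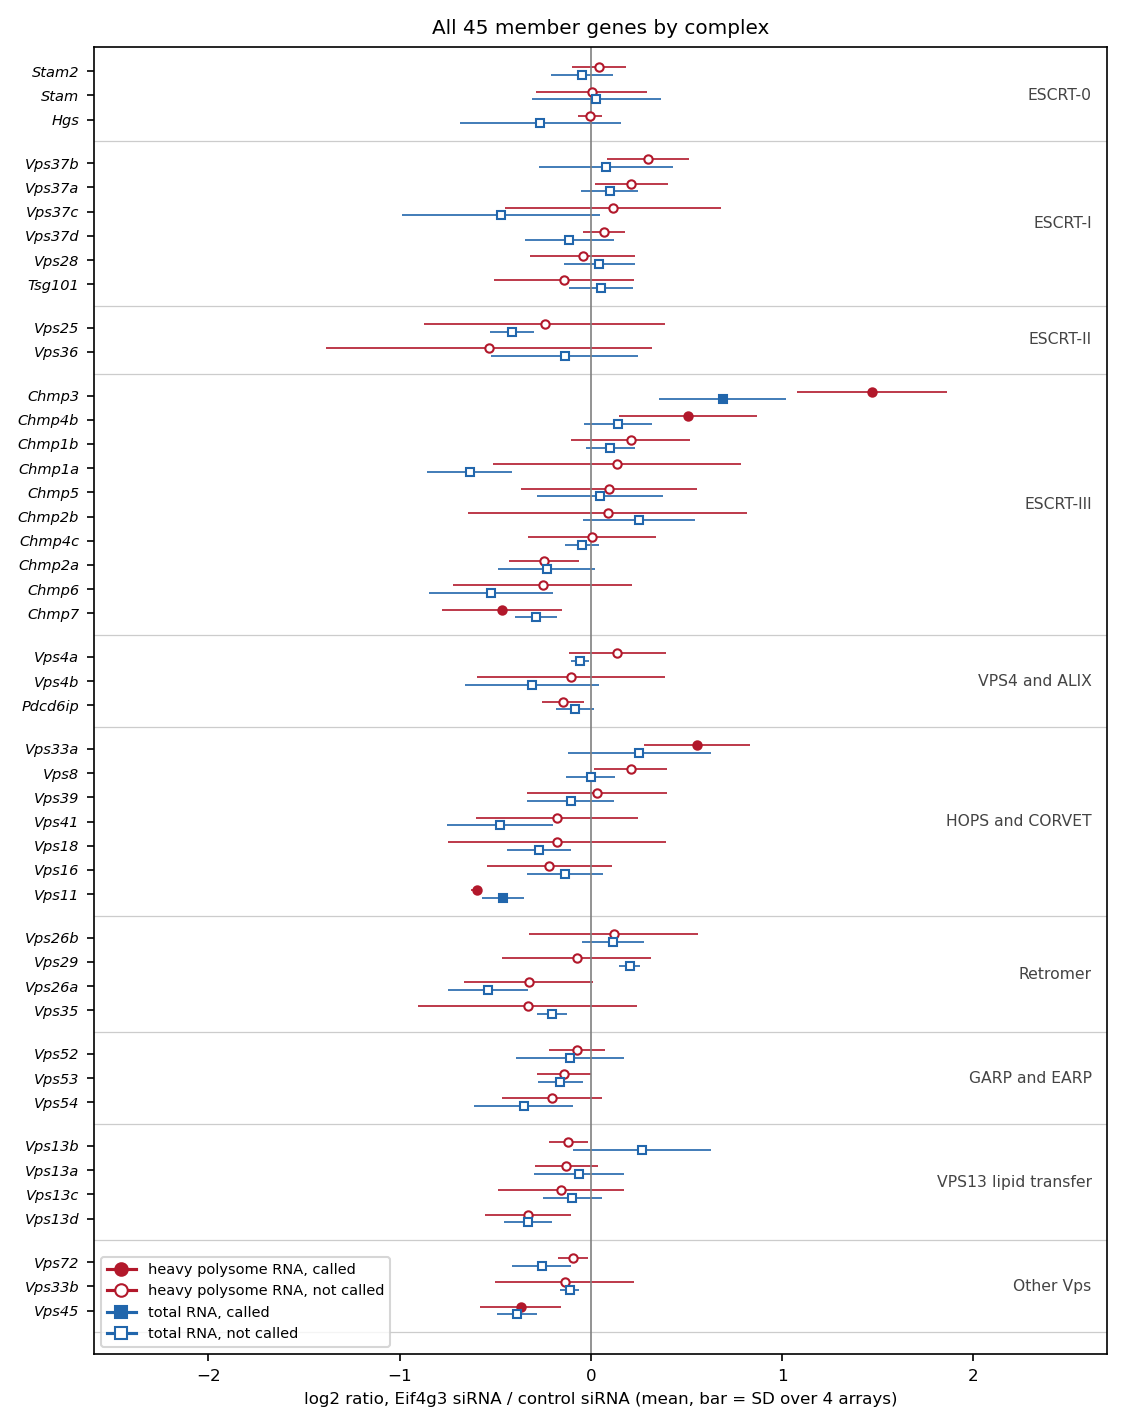
Mean log2 ratio of Eif4g3 siRNA over control siRNA (horizontal axis) of all 45 member genes, grouped by complex, with bars for the SD over 4 arrays; heavy polysome RNA is red and drawn above total RNA in blue, and filled points passed the threshold. Filled points are 6 in heavy polysome RNA and 2 in total RNA.

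Of the 7 HOPS and CORVET genes, Vps11 was called lower in heavy polysome RNA, and Vps33a was called with probes that disagree in direction. Vps11, a core subunit of both tethers, read -0.60, -0.57, -0.64 and -0.58 in heavy polysome RNA and -0.50, -0.36, -0.60 and -0.38 in total RNA. Its values were below 0 on all 8 arrays, with the smallest spread in heavy polysome RNA of any member. It was 1.51-fold lower in heavy polysome RNA (-0.60 ± 0.03, limma adjusted p = 0.00412) and 1.38-fold lower in total RNA (-0.46 ± 0.11, limma adjusted p = 0.0184). The fractions overlapped, and their difference was -0.14 (95% interval -0.39 to 0.11). The probe A_51_P516362 lies on chromosome 9 of mm8 from 44099299 to 44099358. A second probe shifted by only 20 bases, A_52_P649356, read -0.39, -0.50, -1.10 and -0.50 in heavy polysome RNA and -0.44, -0.35, -0.52 and -0.12 in total RNA. It passed in heavy polysome RNA (-0.62 ± 0.32, adjusted p = 0.0186) and not in total RNA (-0.36 ± 0.17, adjusted p = 0.127) in the fit over all probes.

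Vps33a, the core subunit that binds SNARE fusion proteins, gave opposite readings from its 2 probes. Its brighter probe, A_51_P102507 (chromosome 5 of mm8, 123790052 to 123790111), read 0.68, 0.23, 0.87 and 0.44 in heavy polysome RNA and -0.15, 0.23, 0.18 and 0.75 in total RNA. By this probe the gene was 1.47-fold higher in heavy polysome RNA (0.56 ± 0.28, limma adjusted p = 0.0471), with no call in total RNA (0.25 ± 0.37, adjusted p = 0.355). The other probe, A_52_P123665 (123791619 to 123791678), read -0.29, -0.86, -1.01 and -0.66 in heavy polysome RNA and -0.81, -0.55, -0.84 and -0.60 in total RNA. It was below 0 on all 8 arrays and passed in both fractions in the fit over all probes (-0.71 ± 0.31, adjusted p = 0.00994, and -0.70 ± 0.15, adjusted p = 0.0195). Both probes carry the same transcript accession. With the mean of its probes the gene read -0.075 in heavy polysome RNA and was not called (adjusted p = 0.709).

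The remaining tether genes were not called. Vps41, a HOPS subunit, averaged -0.18 ± 0.42 in heavy polysome RNA and -0.48 ± 0.28 in total RNA. Vps39, the other HOPS-specific subunit, averaged 0.03 ± 0.36 and -0.10 ± 0.23 in the same order. Vps8, a CORVET-specific subunit, averaged 0.21 ± 0.19 in heavy polysome RNA with total RNA values from -0.14 to 0.17. The core genes Vps16 and Vps18 averaged -0.22 ± 0.33 and -0.18 ± 0.57 in heavy polysome RNA, and -0.13 ± 0.20 and -0.27 ± 0.17 in total RNA.

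**Figure D3:**
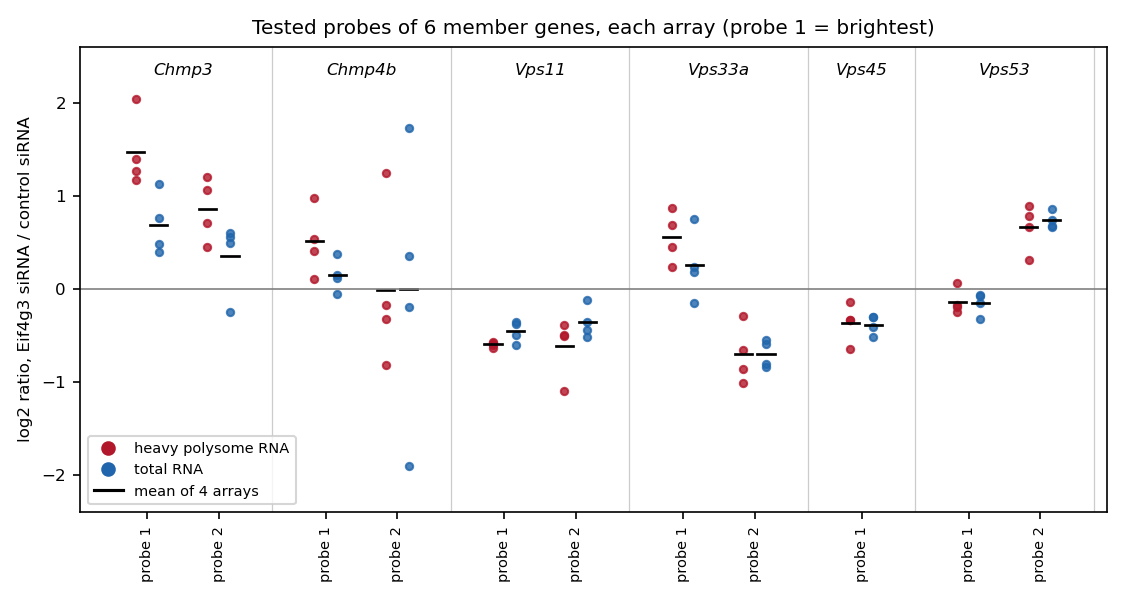
Log2 ratio of Eif4g3 siRNA over control siRNA (vertical axis) of every tested probe of 6 member genes, with 1 point per array, heavy polysome RNA in red left of total RNA in blue, and a black line at the mean of 4 arrays. Probes of Chmp3 and of Vps11 lie on the same side of 0 by their means, whereas the 2 probes of Vps33a lie on opposite sides, as do those of Vps53.

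No retromer gene passed in the main fit. Of 22 alternative settings, Vps26a passed as lower in 11 in total RNA and in 4 in heavy polysome RNA. In total RNA these included slide as a random block (limma adjusted p = 0.0227) and array position as a block (limma adjusted p = 0.0239). These 2 settings called 10.2% and 6.69% of all tested genes. Vps26a, an arrestin-like subunit, came closest, with 0.10, -0.68, -0.25 and -0.48 in heavy polysome RNA and -0.66, -0.61, -0.66 and -0.23 in total RNA. Total RNA values were all below 0 (-0.54 ± 0.21, limma adjusted p = 0.0517), and heavy polysome values overlapped them (-0.33 ± 0.34, adjusted p = 0.159). Vps35, the scaffold of the complex, had the largest heavy polysome mean of the 4 genes, with 0.35, -0.26, -1.06 and -0.35 there and -0.13, -0.31, -0.18 and -0.19 in total RNA. Its heavy polysome values straddled 0 (-0.33 ± 0.57), and its total RNA values were below 0 and close together (-0.20 ± 0.08). Vps29, the third core subunit, averaged -0.07 ± 0.39 in heavy polysome RNA and 0.20 ± 0.06 in total RNA. Vps26b averaged 0.12 ± 0.44 and 0.11 ± 0.16.

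GARP, which receives vesicles from endosomes at the Golgi, held 3 genes with no call. Vps54 read -0.24, -0.25, 0.16 and -0.47 in heavy polysome RNA and -0.56, -0.44, -0.43 and 0.03 in total RNA, with 3 of 4 values below 0 in each. Vps52 averaged -0.07 ± 0.15 and -0.11 ± 0.28 in the same order. Vps53 averaged -0.14 ± 0.14 and -0.16 ± 0.12 by its brightest probe. A second Vps53 probe, A_52_P531184 (chromosome 11 of mm8, 75993333 to 75993392), read 0.31, 0.67, 0.78 and 0.89 in heavy polysome RNA and 0.74, 0.86, 0.66 and 0.68 in total RNA. That probe passed in both fractions over all probes (0.66 ± 0.25, adjusted p = 0.00769, and 0.73 ± 0.09, adjusted p = 0.0113), and on total RNA array 2 it carries the name of an expressed sequence tag instead of Vps53.

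The VPS13 genes encode large proteins that bridge membranes and transfer lipids, and none of the 4 was called. Vps13d read -0.43, -0.52, -0.01 and -0.35 in heavy polysome RNA and -0.26, -0.29, -0.52 and -0.26 in total RNA. All 8 values were below 0 (-0.33 ± 0.22, adjusted p = 0.0793, and -0.33 ± 0.13, adjusted p = 0.0968). Vps13a, Vps13b and Vps13c had heavy polysome means between -0.16 and -0.12. Vps13b averaged 0.27 ± 0.36 in total RNA.

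Vps45, which binds SNARE proteins of early endosomes, was the one called gene outside ESCRT and the tethers. It read -0.14, -0.34, -0.65 and -0.34 in heavy polysome RNA and -0.52, -0.30, -0.42 and -0.31 in total RNA. All 8 values were below 0 and the fractions overlapped. It was 1.29-fold lower in heavy polysome RNA (-0.37 ± 0.21, limma adjusted p = 0.048) and missed the threshold in total RNA (-0.39 ± 0.10, adjusted p = 0.0566). Vps33b, a paralogue of Vps33a outside HOPS, averaged -0.14 ± 0.36 and -0.11 ± 0.05. Vps72, a chromatin protein that the name rule also selects, averaged -0.09 ± 0.08 and -0.26 ± 0.15.

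ESCRT genes and the HOPS, CORVET and retromer genes were set side by side by counts and medians. Of 24 ESCRT genes, 2 were called higher and 1 lower in heavy polysome RNA, and 1 higher and 0 lower in total RNA. Over all tested genes the shares were 4.88% higher and 4.05% lower in heavy polysome RNA, and 1.67% and 2.7% in total RNA. Of 11 HOPS, CORVET and retromer genes, 1 was called with no settled direction (Vps33a) and 1 lower in heavy polysome RNA, and 0 higher and 1 lower in total RNA. Median log2 ratios were 0.02 for ESCRT and -0.18 for HOPS, CORVET and retromer in heavy polysome RNA, where the median of all tested genes was 0.02. In total RNA they were -0.05 for ESCRT and -0.13 for HOPS, CORVET and retromer, where the median of all tested genes was -0.04. ESCRT medians on heavy polysome arrays 1 to 4 were 0.35, -0.04, -0.05 and -0.03, and HOPS, CORVET and retromer medians were 0.13, -0.23, -0.25 and -0.22. On total RNA arrays 1 to 4 the ESCRT medians were -0.08, -0.05, -0.02 and -0.10, and the HOPS, CORVET and retromer medians were -0.22, -0.02, -0.18 and 0.06. The ESCRT median was the higher one on all 4 heavy polysome arrays and on total RNA arrays 1 and 3, and the lower one on total RNA arrays 2 and 4.

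**Figure D4:**
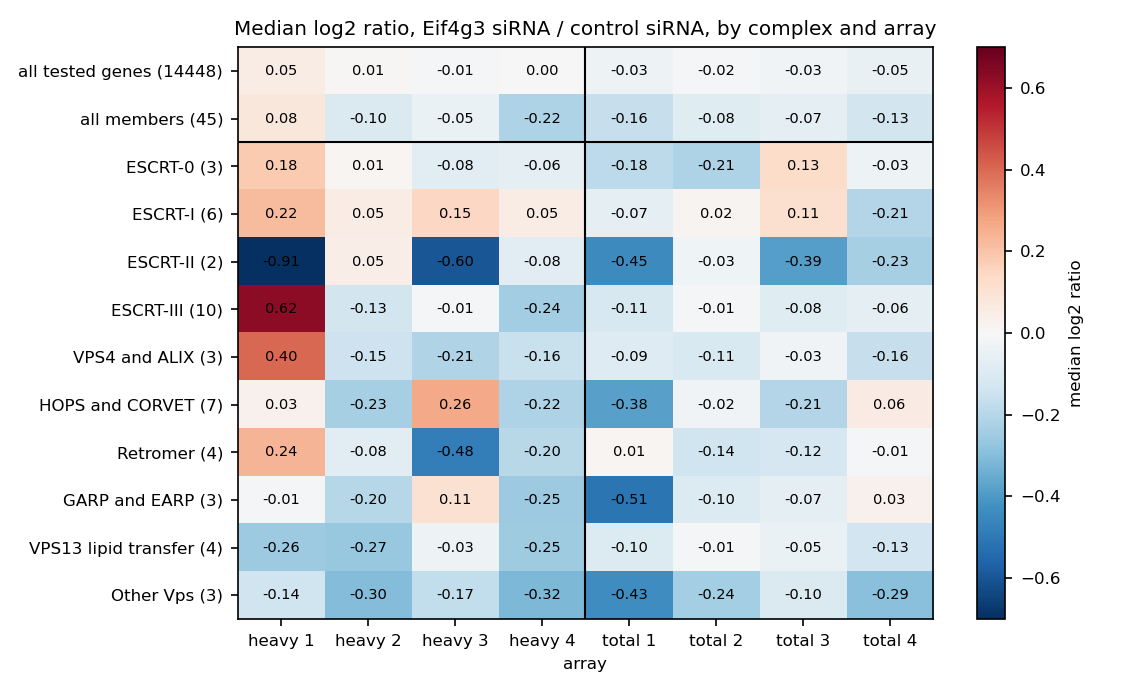
Median log2 ratio of Eif4g3 siRNA over control siRNA of each complex (rows, with the number of genes) on each array (columns, heavy polysome arrays left of total RNA arrays); red is above and blue below 0, and the number in a cell is the median. The 10 ESCRT-III genes have a median of 0.62 on heavy polysome array 1 and between -0.24 and -0.01 on the other heavy polysome arrays.

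Within ESCRT-III the same array stood apart: its median was 0.62 on heavy polysome array 1 and -0.13, -0.01 and -0.24 on arrays 2 to 4. Over all 45 genes the median was -0.09 in heavy polysome RNA and -0.11 in total RNA. In heavy polysome RNA, 6 genes were above 0 on all 4 arrays (13.3%) and 8 below (17.8%), beside 17.2% and 14.7% of all tested genes. In total RNA, 2 genes, Chmp3 and Vps29, were above 0 on all 4 arrays (4.44%) and 16 below (35.6%), beside 13.2% and 21.5% of all tested genes.

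The difference of the log2 ratios between heavy polysome and total RNA, in which an equal dye bias cancels, was called for 0 of the 45 genes and for 0 of all 14448 (0% of all genes, limma). At an unadjusted p under 0.05, limma counted 2 members, Chmp3 and Chmp1a, beside 5.21% of all tested genes. These were also the members whose heavy polysome values all lay above their total RNA values, which held for 2.38% of all tested genes. No member had all heavy polysome values below its total RNA values, which held for 1.23% of all tested genes.

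The distribution of transcripts between fractions within 1 kind of cell was read from the single channels as heavy polysome minus total RNA. No slide held both fractions, so a slide effect cannot be told apart from a fraction difference in these values. limma called 0 of the 45 genes in Eif4g3 siRNA cells, beside 0.132% of all tested genes, and 0 in control siRNA cells, beside 2.15% (0.0138% higher and 2.13% lower). At an unadjusted p under 0.05 the counts were 8 members in Eif4g3 siRNA cells, beside 12.6% of all tested genes, and 3 members in control siRNA cells, beside 12.5%. Medians over the members were 0.15 in Eif4g3 siRNA cells and 0.11 in control siRNA cells, beside 0.02 and -0.01 over all tested genes. HOPS and CORVET genes had a median of 0.42 in Eif4g3 siRNA cells and 0.34 in control siRNA cells. For retromer genes the medians were 0.27 and 0.29 in the same order. For the 8 tested exosome and lysosome membrane genes with other names they were 0.62 and 0.22. ESCRT-III genes had a median of 0.23 in Eif4g3 siRNA cells and 0.02 in control siRNA cells.

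The 3 members with the highest control siRNA values were Vps33a, Vps53 and Vps37c. These values come from the brightest probe of each gene. Another probe of Vps33a and another of Vps53 gave log2 ratios of opposite sign to the brightest. Vps33a showed 0.97 in Eif4g3 siRNA cells (95% interval 0.09 to 1.85) and 0.67 in control siRNA cells (0.07 to 1.27). Vps53 showed 0.61 in Eif4g3 siRNA cells (0.12 to 1.11) and 0.60 in control siRNA cells (0.10 to 1.09). Vps37c showed 1.08 in Eif4g3 siRNA cells (0.46 to 1.71) and 0.50 in control siRNA cells (-0.15 to 1.14). The 3 lowest in control siRNA cells were Vps13b, Vps72 and Stam. Vps13b showed -0.78 in Eif4g3 siRNA cells (-1.41 to -0.15) and -0.39 in control siRNA cells (-0.86 to 0.07). Vps72 and Stam lay between -0.30 and -0.14 in both kinds of cell.

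In Eif4g3 siRNA cells the heavy polysome values of 5 members lay above all their total RNA values, beside 2.97% of all tested genes. They were Vps37c, Chmp1a, Chmp3, Vps41 and Vps8. In control siRNA cells this held for 2 members, Vps29 and Vps53, beside 1.6% of all tested genes. No member had all heavy polysome values below its total RNA values in either kind of cell, beside 5.19% of all tested genes in Eif4g3 siRNA cells and 8.23% in control siRNA cells.

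**Figure D5:**
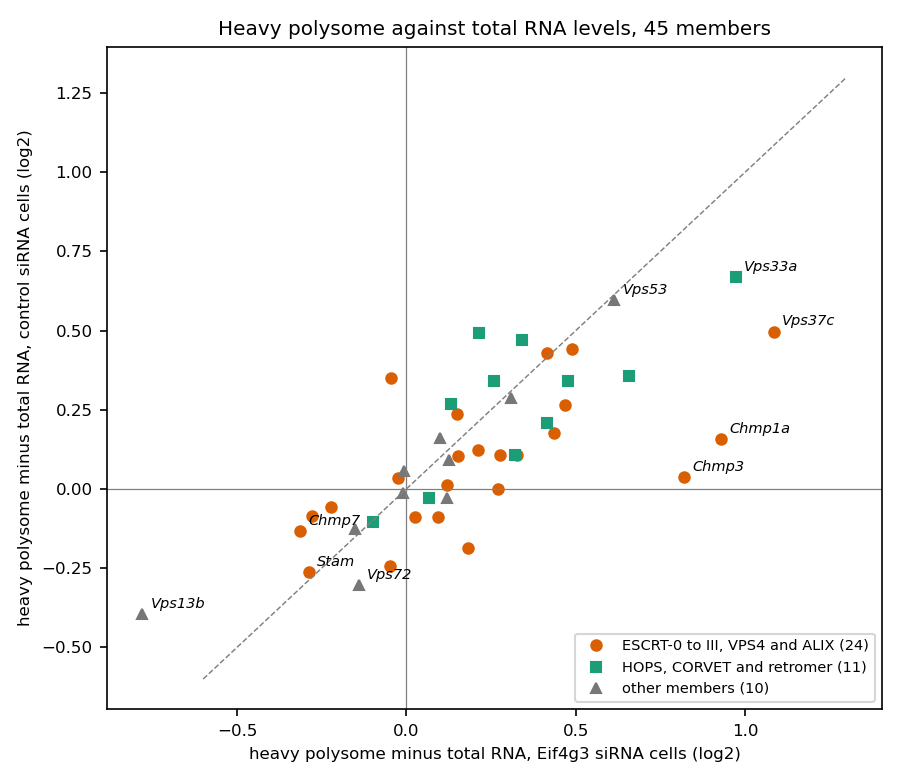
Heavy polysome minus total RNA (log2 of normalised single-channel intensity, means of 4 arrays) in Eif4g3 siRNA cells (horizontal axis) and in control siRNA cells (vertical axis), with 1 point per member gene and a dashed line where both are equal. Chmp3 lies at 0.82 and 0.04, and Chmp1a at 0.93 and 0.16, the largest differences between the kinds of cell.

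Partners of these proteins with other names gave 70 tested genes. In heavy polysome RNA 3 were higher and 6 lower, beside 4.88% and 4.05% of all tested genes. In total RNA 0 were higher and 5 lower, beside 1.67% and 2.7% of all tested genes. Among ESCRT partners, Snf8, the ESCRT-II subunit named Vps22 in yeast, was higher in heavy polysome RNA (0.58 ± 0.37, limma adjusted p = 0.045) and averaged 0.03 ± 0.30 in total RNA. Mitd1, which binds ESCRT-III at the end of cell division, was higher in heavy polysome RNA (0.38 ± 0.08, adjusted p = 0.0356). Tom1, a ubiquitin-binding sorting adaptor, was lower in both fractions (-0.60 ± 0.32 in heavy polysome and -0.56 ± 0.17 in total RNA, adjusted p = 0.0197 and 0.0406).

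Among the genes around the tethers, 2 were lower in both fractions. Mon1b encodes a subunit of the activator of Rab7, the GTPase that HOPS binds, and averaged -0.67 ± 0.20 in heavy polysome and -0.87 ± 0.54 in total RNA. Pik3r4 encodes the VPS15 subunit of the kinase that makes PI3P, and averaged -0.42 ± 0.05 and -0.38 ± 0.13. Retromer partners that were lower in both fractions were Washc5, a subunit of the WASH complex (-0.53 ± 0.19 and -0.54 ± 0.17), and Tbc1d5, an inhibitor of Rab7 (-0.76 ± 0.18 and -0.79 ± 0.44). Snx12, a sorting nexin, was higher in heavy polysome RNA (0.43 ± 0.17, adjusted p = 0.0197).

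Igf2r, a mannose 6-phosphate receptor and a cargo of retromer, was lower in heavy polysome RNA. It read -1.12, -0.71, -0.68 and -0.67 there, and 0.10, -0.27, -0.22 and 0.04 in total RNA, with no overlap. It was 1.73-fold lower in heavy polysome RNA (-0.79 ± 0.21, limma adjusted p = 0.00448), and its total RNA mean was -0.09 ± 0.18. The difference of -0.71 between fractions did not pass (adjusted p = 0.847). The 8 tested exosome and lysosome membrane genes had no call in either fraction.

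A palindromic E-box, TCACGTGA, is the core of the CLEAR element found upstream of many lysosome genes. It was searched in RefSeq promoter windows of GRCm38.p6, from 250 bases before to 50 after each start, which exist for 31 of the 45 members. The motif reads the same on both strands. It stood in a window of 4 of the 31 genes (12.9%), and of 304 of all 27025 genes with a window (1.12%). A match describes these letters only. The E-boxes are shown with 11 bases on each side, or up to the start site where that is nearer, in the direction of transcription and with the motif in capitals, because this motif is known from lysosome genes and few promoters hold it.
Pdcd6ip, chr9:113708280-113708309, minus strand: tggtggcaccaTCACGTGAccgagcggcgc
Vps16, chr2:130424290-130424319, plus strand: aggcggcctcgTCACGTGAccccgaagggc
Vps26a, chr10:62486732-62486761, minus strand, downstream start: atggcctacggTCACGTGAcgggcggcggg
Vps26a, chr10:62486970-62486999, minus strand, upstream start: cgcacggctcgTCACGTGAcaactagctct
Vps33a, chr5:123573016-123573055, minus strand: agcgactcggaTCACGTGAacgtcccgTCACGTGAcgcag

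None of Pdcd6ip, Vps16 and Vps26a was called in either fraction, and Vps33a had probes of both signs. Heavy polysome means were -0.14 for Pdcd6ip, -0.22 for Vps16, -0.33 for Vps26a and 0.56 or -0.71 for Vps33a by its probes. In total RNA they were -0.08 for Pdcd6ip, -0.13 for Vps16, -0.54 for Vps26a and 0.25 or -0.70 for Vps33a. The CCGGAA core stood in a window of 15 of the 31 genes (48.4%) and of 16.7% of all genes. The GC box stood in 20 of the 31 (64.5%) and in 38.2% of all genes, and the letters CCAAT, searched on both strands, in 6 of the 31 (19.4%) and in 41.1% of all genes. All genes with a window outnumber the genes tested on these arrays (27025 against 14448), whereas every member was tested. Shares among tested genes alone were not counted for any motif, TCACGTGA included.

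Levels of other marker genes moved beside the member calls. Of the 8 macrophage markers, 5 were tested, while Adgre1, Itgam and Tyrobp were never above background. Trem2 was called lower in heavy polysome RNA only (-1.39 ± 0.71) and Csf1r in total RNA only (-0.57 ± 0.30). Over all tested genes, 4.05% and 2.7% were called lower in these fractions. In each fraction 4 of the 5 tested markers had a mean below 0 and 1 a mean above 0. The summed intensity of the macrophage list in heavy polysome RNA ran from 1030 to 1730 in Eif4g3 siRNA cells and from 1670 to 3190 in control siRNA cells. In total RNA it ran from 1100 to 2050 in Eif4g3 siRNA cells and from 1800 to 2430 in control siRNA cells. The ranges of the 2 kinds of cell overlapped in both fractions. Of the 9 stromal markers, 1 was called higher and 4 lower in heavy polysome RNA, beside 4.88% and 4.05% of all tested genes. In total RNA 0 were higher and 1 lower, beside 1.67% and 2.7%. Their summed intensity in heavy polysome RNA ran from 83500 to 126000 in Eif4g3 siRNA cells and from 109000 to 147000 in control siRNA cells, so the ranges overlapped. In total RNA it ran from 72100 to 121000 in Eif4g3 siRNA cells and from 110000 to 136000 in control siRNA cells, again with overlap. The part of the marker genes in the member results was not tested.

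Calls depended on single arrays in different degrees. Chmp3 and Vps11 kept their heavy polysome calls with any 1 of the 8 arrays left out, with means of 1.28 to 1.57 for Chmp3 and -0.61 to -0.59 for Vps11. In total RNA, Chmp3 no longer passed in 6 of the 8 such fits, those without any single total RNA array and those lacking array 2 or array 4 of heavy polysome RNA (largest adjusted p = 0.159), and the Vps11 call without total RNA array 1, 2 or 3 (largest adjusted p = 0.0956). The heavy polysome calls of Chmp4b, Chmp7, Vps33a and Vps45 held in 2, 2, 2 and 1 of the 8 fits with 1 array left out. Without the 3 arrays of lowest correlation, 8 members were called in heavy polysome and 10 in total RNA, Chmp3 and Vps11 among them in both, beside 16.4% and 21.8% of all tested genes.

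Arrays lay at 2 positions of their slides, each with 2 arrays of each fraction. The 3 arrays of lowest correlation all lay at position 1. With position as a block the same 6 genes were called in heavy polysome RNA, beside 11.4% of all tested genes. In total RNA 4 were called there, beside 6.69% of all tested genes. Chmp3 averaged 1.72 at position 1 and 1.22 at position 3 in heavy polysome RNA, and 0.80 and 0.58 in total RNA. Vps11 averaged -0.62 and -0.58 in heavy polysome RNA, and -0.37 and -0.55 in total RNA. Chmp4b averaged 0.76 at position 1 and 0.26 at position 3 in heavy polysome RNA, and Vps33a, by its brightest probe, 0.78 and 0.34. Chmp7 and Vps45 averaged -0.47 and -0.40 at position 1, and -0.47 and -0.34 at position 3. Within position 3, 12 members passed in each fraction, Chmp3 and Vps11 among them, beside 20.6% of all tested genes in heavy polysome and 22.6% in total RNA. Within position 1 limma called 0 of all tested genes in either fraction, so the members cannot be read there.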

How the data were processed

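Each of the 8 Agilent 4×44K arrays held Eif4g3 siRNA RNA in Cy5 and control siRNA RNA in Cy3, and array position and slide came from the file headers. Spot intensities were deposited by the authors as scanner output of Feature Extraction (10.7.3.1 on 7 arrays, 10.5.1.1 on total RNA array 2), per the file headers. The log10 ratios in these files are the scanner software's own processed red over green values, per the file headers. The value table deposited by the authors held log2 ratios within 0.01 of those processed ratios for nearly all probes, and served as an alternative.

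Mean intensities were corrected with normexp (offset 50), normalised within arrays by loess (span 0.3) and, for single channels, between arrays by Aquantile, in limma 3.58.1 (R 4.3.3). Control spots had weight 0. Probes well above background in a channel on at least 3 of 4 arrays of a fraction were kept, and the brightest probe stood for a gene. Genes were named through RefSeq accessions, then symbols. All 14448 genes entered 1 limma fit over both fractions, with Benjamini-Hochberg adjustment, a threshold of 0.05 and two-sided tests. Data were simulated for the heavy polysome comparison over 14448 genes, with independent normal noise at each gene's own spread. There the fit recovered 44 of 100 seeded 1.5-fold changes and 85 of 100 seeded 2-fold changes, with 3 false calls. The simulation held no dye bias and no correlation between arrays, so these counts do not give the error rate in the real arrays. Alternatives covered background, scaling, filter, probe choice, slide, position, replicate number and left-out arrays; those on array position were added after seeing the data.

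Members, gene lists and tests were chosen with earlier results of these data known. Full array values were given for called members and, in each complex, for the largest heavy polysome mean; those of Chmp1a and Vps26a, and of second probes, were added after their values were seen. Pathway genes that passed were named, and for the fraction comparison the 3 highest and 3 lowest members in control siRNA cells. Probe positions are mm8 as in the files, and promoter positions are GRCm38.p6.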

Additional observations from a re-analysis of the deposited data

Results flagged for a closer look

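In 11 of 90 groups of 4 arrays (1 member gene in 1 fraction), 1 array stood far from the other 3 by Dixon's criterion, which flags about 1 in 20 groups by chance. On heavy polysome array 3 these were Tsg101 (-0.69), Vps25 (-1.18), Vps13c (0.33), Vps18 (0.67) and Vps33b (0.41). On heavy polysome array 1 it was Vps36 (-1.80). On total RNA array 1 they were Chmp5 (0.53) and Vps37c (-1.24), on total RNA array 3 Vps13d (-0.52), and on total RNA array 4 Vps13a (-0.41) and Vps26a (-0.23). These are log2 ratios with Eif4g3 siRNA on top, and by its brightest probe none of these genes was called in either fraction.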

How the results depend on the processing

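Member calls, 6 in heavy polysome RNA and 2 in total RNA, depended on the processing, as did the shares of all tested genes called (8.93% and 4.37%). Counts below are followed by that share. In heavy polysome RNA they were 1 with median centring in place of loess (1.36%) and 3 with no filter on dim probes (4.12%). They were 2 with heavy polysome arrays 2 and 4 averaged (3%) and 2 with only the arrays of that fraction (2.64%). Within array position 3 the count was 12 (20.6%), and within position 1 it was 0 (0%). With 1 array left out it ran from 2 to 5, and the share from 2.35% to 10.6%. In total RNA the counts were 0 with median centring (1.45%), 1 with no filter (1.63%) and 5 with tested probes averaged per gene (5.8%). They were 4 with slide as a random block (10.2%) and 1 with heavy polysome arrays 2 and 4 averaged (2.06%). Without the 3 arrays of lowest correlation the count was 10 (21.8%), and with only the arrays of that fraction 4 (4.77%). It was 4 with position as a block (6.69%), 12 within position 3 (22.6%) and 0 within position 1 (0%). With 1 array left out it ran from 0 to 6, and the share from 0.318% to 9.07%. An equal count can hold other genes. With Agilent's processed signals or the deposited value table, 10.2% of all tested genes were called in total RNA. The 2 members among them were Vps26a and Vps72, and Chmp3 (limma adjusted p = 0.085) and Vps11 (limma adjusted p = 0.091) were lost. The causes were not tested. Vps33a in heavy polysome RNA turned to -0.075 with the mean of its tested probes, which point in opposite directions. With the replicate block, the difference between fractions and both single-channel comparisons still had 0 members called. Deviations of same-numbered arrays correlated at -0.0154, 0.173, -0.110 and -0.297, so the numbers were not taken as pairs. The number of arrays, their unequal correlation and the unswapped dyes limit the precision, and probes near background, as for Chmp4c, bound a ratio only.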
